A study of Homo sapiens with 18 samples.

Results

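The comparison of WA with KK asked how the transcripts of bladder cancer cells differ when WWOX and AP-2α are overexpressed together. It used 6 of the 18 CAGE-seq libraries, namely WA and KK of 3 lines (RT-112, HT-1376, CAL-29), which are established human lines from urinary bladder carcinoma. In KK both lentiviral transductions carried blank controls. In WA the first transduction introduced WWOX in the pLenti-GIII-CMV-GFP-2A-Puro system, and the second introduced AP-2α in the pLKO-Neo-CMV system. Cells were selected with puromycin and then with G418, so that WA and KK shared both rounds of infection and selection, and whether a variant is a pool or 1 clone was not settled from the sources used here. RT-112 was grown in RPMI-1640, whereas HT-1376 and CAL-29 were grown in DMEM, and a medium therefore never differed within a pair. Each variant had 1 library per line, so n = 3 pairs, the lines served as replicates, and no line had a replicate library of its own. A difference within 1 line consequently has no error, and the p-values measure only how far the 3 lines agree. The WK variant (WWOX with a blank second virus) and the KA variant (a blank first virus with AP-2α) are quoted where they place a WA value.

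WWOX is a tumour suppressor whose WW domains bind proline-rich motifs of partner proteins, among them AP-2 and JUN family transcription factors, and it is known for holding such partners in the cytoplasm. AP-2α, encoded by TFAP2A, binds GC-rich DNA as a dimer and controls genes of the epidermis, of epithelial identity and of cell cycle arrest. Urothelium normally follows a luminal programme of uroplakins and simple keratins, and bladder carcinomas may instead take on basal and squamous keratins like those of the epidermis.

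CAGE-seq reads the capped 5′ ends of RNA, and the deposited unit is CPM, the reads of a gene scaled to a common library total. A gene was retained when 1 or more of the 6 libraries reached 5 CPM, which left 12611 of 16575 genes. The change of a gene within a line (log2FC) is the difference of log2(CPM + 0.5) between WA and KK, and this scale understates the change of low genes. Values given in threes without a line name follow the order RT-112, HT-1376, CAL-29. The number of reads on genes lay between 14287464 and 17292683 in the 6 libraries. At this depth 3 reads, the limit for a gene without reads, were worth 0.164 to 0.197 CPM, a floor that covers counting error only.

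All 6 libraries held carcinoma epithelial markers. The summed level of EPCAM, CDH1, KRT7, KRT8, KRT18 and KRT19 ranged from 4674 to 20335 CPM in KK and from 5984 to 19718 CPM in WA. Of 7 fibroblast markers 4 had a row, and their sum ranged from 5.33 to 17.99 CPM in KK and from 10.09 to 59.63 CPM in WA, with the highest value in HT-1376 WA. That excess was mostly COL1A2, at 2.5 CPM in KK and 46.08 CPM in WA of HT-1376 and at 0 in the other lines, and its part in the HT-1376 results was not tested. Of 5 endothelial markers only CDH5 had a row, and of 6 blood markers only CD14 had one, with values from 0.19 to 2.1 CPM and from 0 to 0.38 CPM, respectively. In bulk samples fewer cells of a type and less RNA per cell cannot be told apart.

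The transduced genes came first, because they are a check on the labels. WWOX (chr16:78099400-79212667, plus strand of GRCh38) measured 26.04 CPM in RT-112 KK and 18.95 CPM in RT-112 WA, 22.36 and 19.24 CPM in HT-1376, and 63.68 and 69.27 CPM in CAL-29. WWOX was thus not higher in WA than in KK in RT-112 or HT-1376, and the excess in CAL-29 was small beside the 154.92 CPM of CAL-29 WK. TFAP2A (chr6:10393186-10419659, minus strand) measured 18.01 CPM in KK and 25.32 CPM in WA of RT-112, 68.99 and 69.91 CPM in HT-1376, and 35.43 and 86.67 CPM in CAL-29. The order of WA over KK held in all 3 lines, with a gap in HT-1376 of less than 1 CPM, and the mean log2FC of TFAP2A was 0.59 (SE 0.29, n = 3 pairs, limma adjusted p = 0.997). In RT-112, HT-1376 and CAL-29, TFAP2A measured 46.77, 100.66 and 49.88 CPM in KA and 20.31, 76.9 and 61.66 CPM in WK. WA was thus below KA in RT-112 and HT-1376, below WK in HT-1376, and above both in CAL-29. A transcript from a vector promoter need not be counted at the native start of the gene, so these values are not a full check of overexpression.

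The library labelled RT-112 WA stood apart at another AP-2 gene. TFAP2C, which encodes AP-2γ, measured 57.95 CPM in RT-112 KK, 56.2 CPM in WK, 49.4 CPM in KA and 179.87 CPM in WA, against 142.75 CPM in the RT-112 library labelled WC, which was made to overexpress AP-2γ. In the other lines TFAP2C was lower in WA than in KK, with 98.03 against 158.24 CPM in HT-1376 and 79.85 against 87.95 CPM in CAL-29. Over 13022 genes the library labelled RT-112 WA also correlated most closely with RT-112 WC (Pearson r = 0.990), compared with 0.979 to 0.980 for KK, WK, KA and KC. What this library holds beside its label was not tested, and the main counts that rest on it are therefore given with and without RT-112.

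**Figure D1:**
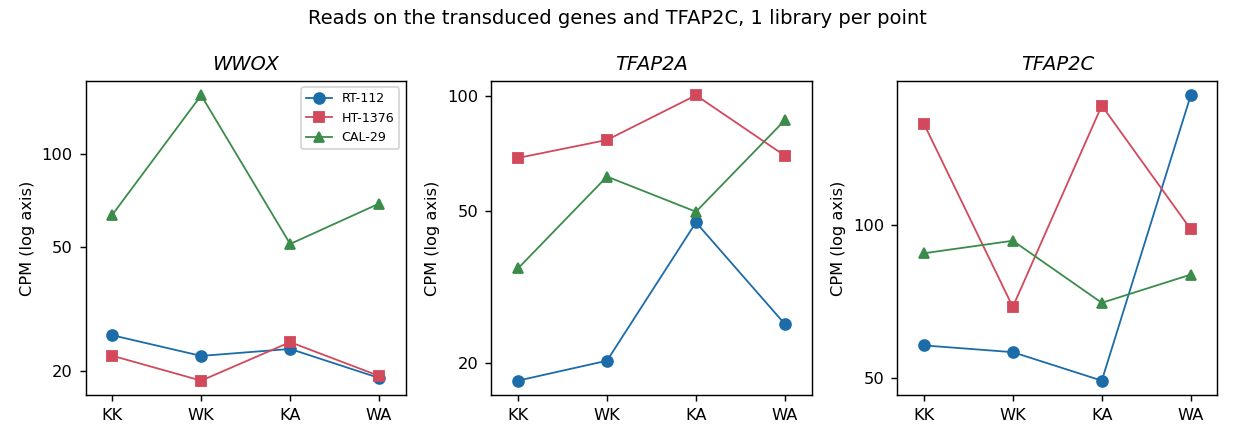
Reads on WWOX, TFAP2A and TFAP2C in CPM (log axis) for KK, WK, KA and WA, with 1 point per library and 1 line per cell line. WWOX is highest in CAL-29 WK at 154.92 CPM, TFAP2A is above KK in all 3 WA libraries, and TFAP2C reaches 179.87 CPM in the library labelled RT-112 WA.

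The measured changes differed between the 3 lines. No line had a replicate library, so a difference in response cannot be told apart from variation between libraries. The log2FC of a gene in one line was nearly unrelated to that in another, with Pearson r over 12611 genes of 0.029 for RT-112 with HT-1376, 0.0024 for RT-112 with CAL-29, and 0.033 for HT-1376 with CAL-29. These correlations are across genes, which are not independent replicates, and each line contributes 1 KK and 1 WA library. The spread of the changes was widest in HT-1376, where the SD of the log2FC over genes was 0.930, compared with 0.498 in RT-112 and 0.564 in CAL-29. In HT-1376, 1105 genes (8.76%) were at least 2-fold higher and 823 (6.53%) at least 2-fold lower in WA, whereas RT-112 had 431 (3.42%) and 144 (1.14%) such genes and CAL-29 had 451 (3.58%) and 324 (2.57%). HT-1376 WA also resembled HT-1376 WK (r = 0.976) more closely than HT-1376 KK (r = 0.924), while CAL-29 WA was closer to KK (r = 0.964) than to WK (r = 0.935).

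No gene passed an adjusted p of 0.05 in limma with the cell line as a block (0 of 12611, 0%), and the smallest adjusted p was 0.514. Before adjustment, 500 genes (3.96%) had a p under 0.05, of which 360 (2.85%) were higher and 140 (1.11%) lower in WA. The reads recovered from the CPM gave 0 genes in edgeR with the cell line in the model, with 493 at an unadjusted p under 0.05, and 31 genes in DESeq2, 29 higher and 2 lower. Without the block limma also called 0 genes, with 17 at an unadjusted p under 0.05. The direction of each gene was therefore read line by line, although with 3 pairs an exact sign-flip test of 1 gene cannot go below a two-sided p of 0.25.

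In WA 1635 genes (13.0%) were higher in all 3 lines and 1252 (9.93%) were lower in all 3. Without RT-112, 3175 of the 12611 genes (25.2%) were higher and 2840 (22.5%) lower in both HT-1376 and CAL-29. A change of at least 2-fold in each line was reached by 20 genes, all higher in WA (0.159% of genes tested), and by 0 genes that were lower (0%). These 20 genes were KLK5, PI3, AZGP1, INHBA, SLCO2A1, IGFBP5, LEMD1, KRT1, NEURL3, SOX9, BARX2, LIF, ANXA6, BAALC, PRDM1, EGR1, FABP4, SOCS3, FOS and NR4A1. Since the threshold chose them, their changes are a description. The last genes inside it were BARX2 and NEURL3, with smallest log2FC of 1.01 and 1.01, and the first outside it were S100A8 at 0.99 and FGFBP1 at 0.93. Without RT-112 the same rule held for 133 genes that were higher and 33 that were lower, without HT-1376 for 45 and 3, and without CAL-29 for 80 and 9. In DESeq2 with the cell line 13 of the 20 passed an adjusted p of 0.05, beside 31 of all 12611 genes. In limma and edgeR with the cell line 0 genes passed. DESeq2 used the same WA and KK libraries that chose the 20, so its count is a description as well.

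The overlap of the genes at least 2-fold changed differed between pairs of lines. Of the 451 genes at least 2-fold higher in CAL-29, 30.8% were also at least 2-fold higher in HT-1376, where 8.76% of all genes were. The corresponding share of the 431 genes of RT-112 was 20.6% in HT-1376 and 11.6% in CAL-29, where 3.58% of all genes were 2-fold higher. Among genes at least 2-fold lower in RT-112, 6.94% were also lower in HT-1376 and 2.08% in CAL-29, beside 6.53% and 2.57% of all genes. Of the 324 genes at least 2-fold lower in CAL-29, 10.2% (33 genes) were also lower in HT-1376, above the 6.53% of all genes and with no library of RT-112 involved. The scatter of changes in one line against another shows the 20 genes in the upper right quadrant of a cloud that has no common axis.

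**Figure D2:**
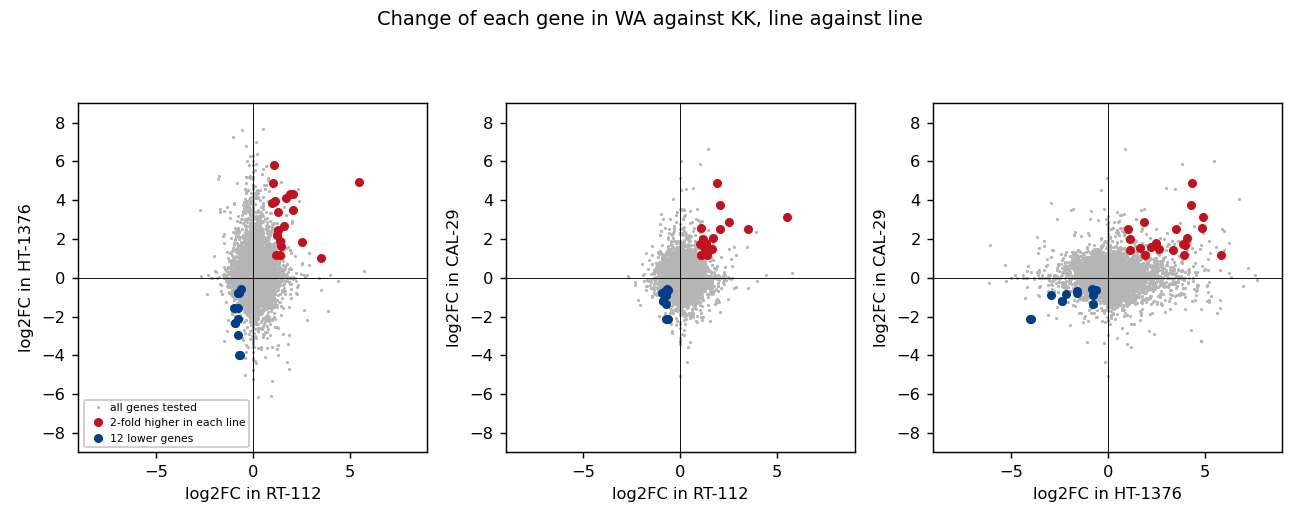
Log2FC of WA against KK for 12611 genes, each line plotted against another, with the 20 genes at least 2-fold higher in each line in red and the 12 lower genes named in the text in blue. The cloud of all genes (grey) shows no shared slope, with Pearson r between 0.0024 and 0.033.

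The gene with the largest shared change was KLK5 (chr19:50943303-50953093, minus strand), a serine protease that cleaves desmosomal proteins in the shedding epidermis and activates other kallikreins. KLK5 measured 1.22, 1.84 and 0.34 CPM in KK of RT-112, HT-1376 and CAL-29, and 76.3, 69.91 and 6.87 CPM in WA. Every WA value exceeded every KK value, and the mean log2FC was 4.51 (SE 0.46, n = 3 pairs, limma adjusted p = 0.514). The call depended on the lines included, since the limma adjusted p of KLK5 was 0.00889 without HT-1376 and 0.00669 without CAL-29. Without RT-112 the genes that passed were PI3 and SPRR1B, and KLK5 was not called. Both fits that called KLK5 keep the library labelled RT-112 WA and rest on fewer pairs. In the variants with a single transgene KLK5 measured 5.99, 66.06 and 0.06 CPM in WK and 35.93, 26.67 and 9.51 CPM in KA. The WA level was therefore the highest of the 4 variants in RT-112 and HT-1376, while in CAL-29 the gene was under the floor of 3 reads in WK and highest in KA. In RT-112 the variants made to overexpress AP-2γ, KC and WC, held KLK5 at 73.38 and 112.07 CPM.

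Other genes of the stratified epidermis and its barrier were among the 20. PI3, which encodes the elastase inhibitor elafin, lies at chr20:45174902-45176544 on the plus strand and measured 6.65, 1.91 and 1.51 CPM in KK of RT-112, HT-1376 and CAL-29, and 26.33, 47.42 and 58.58 CPM in WA. The groups did not overlap, the mean log2FC was 3.70 (SE 0.55), and the smallest change, in RT-112, was 1.91. KRT1, a keratin of the differentiating layers of the epidermis, measured 0.72, 0.92 and 0 CPM in KK and 6.43, 4.67 and 3.16 CPM in WA, with a mean log2FC of 2.41 (SE 0.36). For PI3 and KRT1 alike the lowest WA library was thus above the highest KK library. KRT1 measured 19.55, 0.52 and 0.39 CPM in WK and 31.3, 2.1 and 4.04 CPM in KA. Its WA level was therefore the highest of KK, WK, KA and WA in HT-1376 only. AZGP1, a secreted zinc-binding glycoprotein, measured 0.39, 0.66 and 0.39 CPM in KK and 3.19, 22.24 and 11.4 CPM in WA. BARX2, a homeobox regulator of epithelial cells, measured 2.11, 0.79 and 0.45 CPM in KK and 4.75, 18.21 and 2.67 CPM in WA.

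The list of basal and squamous genes carried this direction mainly in HT-1376 and CAL-29. Of its 21 members past the filter 7 were higher and 0 lower in all 3 lines, compared with 13.0% and 9.93% of all genes, 8 reached an unadjusted p under 0.05 with higher values in WA (2.85% of all genes), and 0 passed the adjusted p. Without RT-112, 13 of the 21 were higher and 0 lower in both other lines (25.2% and 22.5% of all genes). Its median log2FC was 0.00, 2.65 and 1.00 in the order RT-112, HT-1376, CAL-29. SPRR1B, a precursor of the cornified envelope, measured 2.11, 2.96 and 0.95 CPM in KK, and in WA 151.14 CPM in HT-1376 and 92.07 CPM in CAL-29, against a log2FC of 0.01 for RT-112. The gene was thus level in RT-112 and far apart in the other lines, and its mean log2FC of 3.82 (SE 1.09) hides this. SPRR2D and KRT6B had log2FC of 0.12, 5.55 and 1.59 and of 0.12, 4.21 and 1.86, respectively, and in RT-112 both were under the floor of 3 reads in KK and WA. By contrast TP63, the master regulator of the basal layer, and CD44 had mean changes with unadjusted p-values of 0.439 and 0.495 in limma.

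The calgranulins S100A8 and S100A9, calcium-binding proteins of stressed keratinocytes and neutrophils, and the related S100A7 behaved likewise. S100A8 measured 702.02, 732.86 and 32.34 CPM in KK of RT-112, HT-1376 and CAL-29, and 1395.7, 10220 and 1883 CPM in WA, with a mean log2FC of 3.54 (SE 0.80). Its partner S100A9 measured 3485.8, 1203.8 and 58.58 CPM in KK and 5394.2, 9737.9 and 1462.4 CPM in WA. S100A7 measured 0.72, 144.43 and 1.51 CPM in KK and 2.74, 267.89 and 200.01 CPM in WA, so the largest step was in CAL-29. All 3 were higher in WA than in KK in every line, and the limma adjusted p of each was 0.997. For each of the 3 genes WK or KA was above WA in every line. The mean log2FC of S100A8 was 3.72 for WK/KK and 3.45 for KA/KK.

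Of the 20 genes, 3 were immediate early genes, which are transcribed within minutes of growth factor or stress signals. FOS (chr14:75278826-75282230, plus strand), a subunit of the AP-1 factor, measured 20.72, 2.17 and 45.18 CPM in KK of RT-112, HT-1376 and CAL-29, and 47.51, 5.43 and 180.65 CPM in WA. Its log2FC values of 1.18, 1.15 and 1.99 lay close to each other, with a mean of 1.44 (SE 0.26). EGR1 (chr5:138465479-138469303, plus strand), a zinc finger factor of the same class, measured 2.11, 15.72 and 178.6 CPM in KK and 5.59, 74.58 and 544.51 CPM in WA, with a mean log2FC of 1.68 (SE 0.26). For both genes the level differed more between the lines than between KK and WA, so the groups overlapped and only the pairs were separated. NR4A1, an orphan nuclear receptor induced by the same signals, measured 1.77, 1.05 and 3.53 CPM in KK and 5.37, 2.94 and 10.25 CPM in WA, and its mean log2FC of 1.31 was the smallest of the 20.

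The list of MAPK feedback and immediate early genes had 25 members past the filter, of which 10 were higher and 0 lower in all 3 lines (13.0% and 9.93% of all genes). Without RT-112, 13 were higher and 1 lower in both other lines (25.2% and 22.5% of all genes). Its median log2FC was 0.50, 1.11 and 0.62 in the order RT-112, HT-1376, CAL-29, beside 0.017, 0.00 and 0.029 over all genes, so the list median was above that of all genes in each line. FOSB, FOSL1, JUN, JUNB and MYC were among the 10, with mean log2FC of 1.45, 1.35, 0.93, 0.79 and 0.59. The feedback phosphatases and inhibitors of ERK did not share a direction, as DUSP1 had log2FC of 1.07, -0.76 and 1.00 and DUSP6 of -0.70, 2.43 and 0.05. No member passed the adjusted p, and 9 had an unadjusted p under 0.05, all higher (2.85% of all genes).

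Cytokine genes and their inhibitor were also among the 20. LIF, an interleukin-6 family cytokine, measured 5.6, 0.07 and 3.42 CPM in KK of RT-112, HT-1376 and CAL-29, and 12.35, 8.05 and 8.24 CPM in WA, where 0.07 CPM is under the floor of 3 reads. SOCS3, which is induced by such cytokines and inhibits their receptors, measured 9.86, 4.27 and 4.48 CPM in KK and 26.38, 17.51 and 10.58 CPM in WA. Every WA value of SOCS3 exceeded every KK value, and its mean log2FC was 1.48 (SE 0.26). INHBA, the activin A subunit, measured 1.44, 0.39 and 3.81 CPM in KK and 3.52, 25.37 and 24.82 CPM in WA.

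Among 23 inflammatory cytokines and chemokines past the filter, 9 were higher and 0 lower in all 3 lines (13.0% and 9.93% of all genes), and 11 had an unadjusted p under 0.05, all higher (2.85% of all genes). In HT-1376 and CAL-29 alone, 15 were higher and 0 lower in both (25.2% and 22.5% of all genes). The median log2FC was 0.04, 3.06 and 0.79 in the order RT-112, HT-1376, CAL-29, and 19 of the 23 members were at least 2-fold higher in HT-1376, compared with 3 in RT-112 and 10 in CAL-29. CXCL1, a neutrophil attractant, measured 0.11 and 0.17 CPM in KK and WA of RT-112, which is at the floor, 2.56 and 179.06 CPM in HT-1376, and 20.35 and 120.27 CPM in CAL-29. In WK CXCL1 measured 215.05 CPM in HT-1376 and 497.02 CPM in CAL-29, above WA in both, and in KA 13.16 and 146.81 CPM. Its mean log2FC was 3.57 for WK/KK, 1.56 for KA/KK and 2.85 for WA/KK. PTGS2, the inducible cyclooxygenase, measured 4.43 and 5.53 CPM in RT-112, 2.63 and 19.62 CPM in HT-1376, and 21.13 and 89.83 CPM in CAL-29. NFKBIA, the inhibitor that NF-κB induces, had log2FC of 0.50, 0.54 and 0.76 and thus varied little between lines. RT-112 differed from the others in this list, as CXCL8 was lower there in WA (log2FC -0.43) and higher in HT-1376 (4.07) and CAL-29 (2.18).

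Regulators of development and secreted factors made up most of the remaining genes. SOX9 (chr17:72121020-72126416, plus strand), a factor of progenitor cells in many epithelia, measured 6.65, 1.32 and 13.51 CPM in KK of RT-112, HT-1376 and CAL-29, and 15.43, 27.8 and 44.18 CPM in WA. All WA values of SOX9 were above all KK values, and the mean log2FC was 2.26 (SE 0.53). PRDM1, the repressor Blimp-1, measured 1.05, 0.26 and 4.99 CPM in KK and 3.35, 3.71 and 18.44 CPM in WA. NEURL3, an E3 ubiquitin ligase gene, measured 4.21, 7.76 and 2.3 CPM in KK and 52.26, 16.17 and 15.49 CPM in WA, with its largest change in RT-112 (log2FC 3.49). Its limma adjusted p was 0.00889 when HT-1376 was left out, a fit with fewer pairs that keeps the library labelled RT-112 WA. Without RT-112 NEURL3 was not called. IGFBP5, which binds insulin-like growth factors, measured 0.72, 0.26 and 0.5 CPM in KK and 4.53, 8.12 and 5.18 CPM in WA. It measured 1.36, 1.55 and 41.16 CPM in WK and 1.89, 1.76 and 4.98 CPM in KA, so in CAL-29 WK was far above WA.

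The other genes of the set were low in at least 1 line. FABP4, a fatty acid carrier that PPARγ induces, was abundant in RT-112 with 279.12 CPM in KK and 751.69 CPM in WA, whereas it measured 0.33 and 2.11 CPM in HT-1376 and 0.73 and 3.11 CPM in CAL-29. Its log2FC values of 1.43, 1.65 and 1.55 lay within a narrow range although its level differed widely between lines. ANXA6, a membrane-binding annexin, LEMD1, BAALC and the prostaglandin transporter SLCO2A1 had mean log2FC of 2.03, 2.61, 1.91 and 2.69. SLCO2A1 measured 0.67 and 0.76 CPM in WA of RT-112 and CAL-29, so its change there rested on few reads, and only 8 of the 20 genes had at least 5 CPM in KK or WA of every line.

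**Figure D3:**
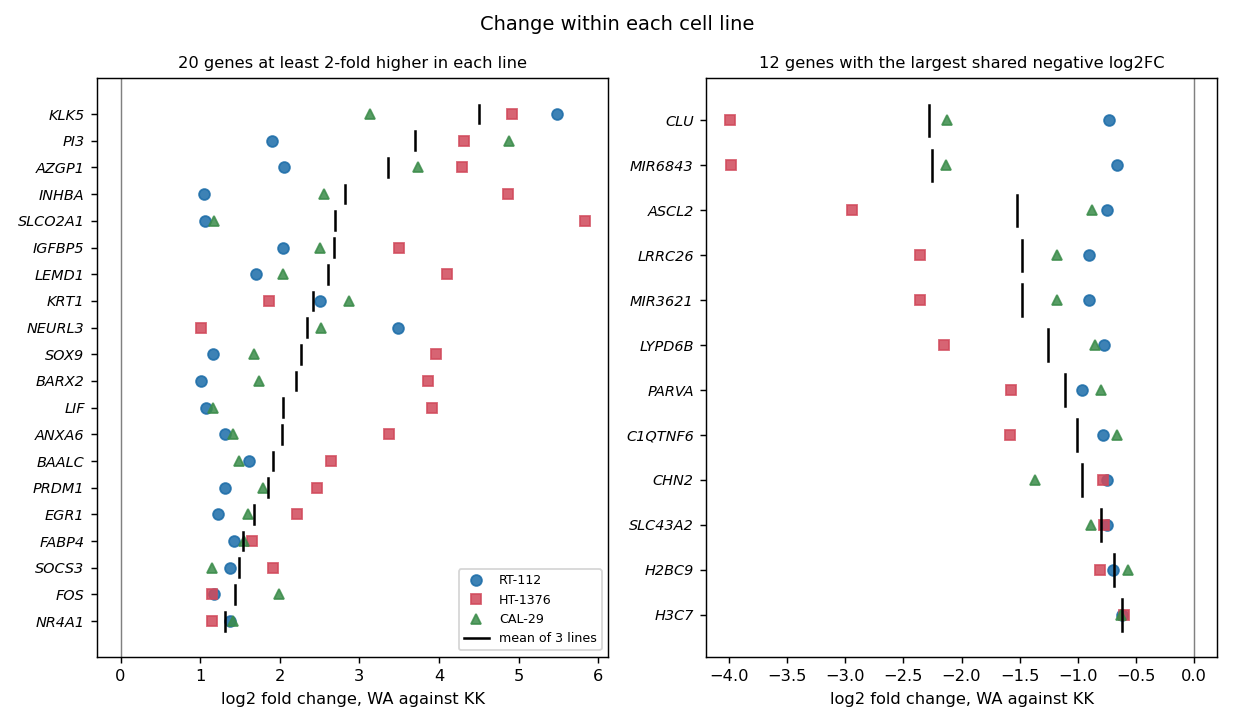
Log2FC of WA against KK in each line (symbols) and the mean of 3 lines (bar) for the 20 genes at least 2-fold higher in each line (left) and the 12 genes with the largest shared negative change (right). KLK5 leads with a mean of 4.51, and CLU has the lowest mean at -2.28 with HT-1376 farthest from 0.

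Because AP-2α was introduced, the promoters of the 20 genes were searched for its palindromic motif GCCNNNGGC, and for the AP-1 motif TGANTCA, on both strands, which for these palindromes are the same search. RefSeq promoter windows of GRCh38.p14, from 250 bases before to 50 bases after the gene start, were matched for 12 of the 20 by symbol. The AP-2 motif was present in a window of 5 of these 12 genes (NEURL3, IGFBP5, ANXA6, PRDM1 and FOS), compared with 39.2% of the 9765 tested genes that had a window and 23.2% of all 35116 windows. The AP-1 motif was present in 1 of the 12 (PRDM1), compared with 6.91% of the tested genes with a window. A match is a description of the letters and not of binding. In FOS the match lies after the gene start. The stretches around the other matches are shown for genes at least 2-fold higher in every line, 5′ to 3′ on the strand of the gene, with the motif in capitals.
NEURL3, AP-2 motif, chr2:96508229-96508287, minus strand: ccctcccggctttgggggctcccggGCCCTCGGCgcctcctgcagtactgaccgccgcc
PRDM1, AP-2 motif at one start, chr6:106086207-106086265, plus strand: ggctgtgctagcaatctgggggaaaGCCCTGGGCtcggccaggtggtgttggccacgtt
PRDM1, AP-2 motif at another start, chr6:106098778-106098836, plus strand: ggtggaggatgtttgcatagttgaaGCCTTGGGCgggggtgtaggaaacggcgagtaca
PRDM1, AP-1 motif at that start, chr6:106098874-106098930, plus strand: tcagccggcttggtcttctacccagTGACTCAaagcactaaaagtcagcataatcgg
ANXA6, AP-2 motif, chr5:151157794-151157822, minus strand: ccggctcggaGCCCACGGCtgtcctcccg
IGFBP5, AP-2 motif, chr2:216695575-216695603, minus strand: ctggctggcaGCCAGGGGCcggctattta

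Genes that were lower in WA in every line changed less than those that were higher. Among genes with at least 5 CPM in KK or WA of each line, the 12 with the largest shared negative change had mean log2FC from -2.28 to -0.62, and their unadjusted p-values in limma ranged from 0.00352 to 0.0131 with an adjusted p of 0.997 for each. CLU (chr8:27596917-27614700, minus strand), the secreted chaperone clusterin, measured 106.65, 692.15 and 206.85 CPM in KK of RT-112, HT-1376 and CAL-29, and 64.17, 43.01 and 46.91 CPM in WA. Every WA value was below every KK value, and the lines, which were far apart in KK, lay within 43.01 to 64.17 CPM in WA. CLU measured 62.57, 37.45 and 145.91 CPM in WK and 74.5, 687.58 and 269.5 CPM in KA, so HT-1376 was also low with WWOX alone. MIR6843 lies within CLU on the same strand and had log2FC of -0.66, -3.98 and -2.13, and its reads cannot be told apart from those of the host gene.

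The remaining lower genes were of several kinds. LRRC26, an auxiliary subunit of BK potassium channels, measured 42.61, 23.02 and 5.21 CPM in KK of RT-112, HT-1376 and CAL-29, and 22.47, 4.09 and 2.02 CPM in WA. MIR3621 overlaps LRRC26 and had identical values in every library, so the pair counts as 1 signal. ASCL2, a factor of intestinal stem cells and a WNT target, measured 12.91, 98.26 and 18.72 CPM in KK and 7.49, 12.33 and 9.98 CPM in WA, with groups that barely failed to overlap. PARVA, which links integrins to actin, had log2FC of -0.96, -1.58 and -0.80. LYPD6B, CHN2, SLC43A2 and C1QTNF6 had mean log2FC of -1.26, -0.97, -0.80 and -1.01. The histone genes H3C7 and H2BC9 had similar changes in the 3 lines, with log2FC of -0.62, -0.60 and -0.63 for H3C7 and of -0.70, -0.81 and -0.57 for H2BC9. WA was the lowest of KK, WK, KA and WA in all 3 lines for 5 of the 12 genes, among them LRRC26 and MIR3621, which are 1 signal. The 12 were picked for WA values low beside KK, so this count is a description.

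Genes of DNA replication stood on the lower side. Of 30 replication and mitosis genes past the filter 11 were lower and 2 higher in all 3 lines, compared with 9.93% and 13.0% of all genes, and 4 had an unadjusted p under 0.05, all lower (1.11% of all genes). Without RT-112, 12 were lower and 5 higher in both other lines, beside 22.5% and 25.2% of all genes. CDC45, a component of the replicative helicase, had log2FC of -1.17, -0.48 and -0.65. MCM5, another helicase subunit, measured 172.2, 86.49 and 64.75 CPM in KK and 97.54, 64.1 and 41.62 CPM in WA. E2F1, which drives entry into S phase, and CDC6, which loads the helicase, had mean log2FC of -0.67 (SE 0.22) and -0.58 (SE 0.23). The mitotic members were not lower together, as MKI67 had log2FC of -0.32, 0.54 and 0.60, and the list median was -0.31, -0.36 and 0.06.

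Genes of luminal identity, junctions and mesenchyme did not share a direction over the lines. Of all genes 13.0% were higher and 9.93% lower in all 3 lines. Without RT-112, 25.2% of all genes were higher and 22.5% lower in both other lines. The counts higher there were 4 of 17 luminal, 4 of 21 junction and 5 of 13 mesenchymal genes. The counts lower there were 2, 5 and 1 in that order. The 17 luminal urothelial genes had median log2FC of 0.05, -0.55 and 0.90 in the order RT-112, HT-1376, CAL-29, and 3 were higher and 0 lower in all 3 lines. Besides FABP4 these were KRT19, a simple keratin with log2FC of 0.11, 1.46 and 0.72, and the pioneer factor FOXA1 with 0.05, 0.16 and 0.90, which in HT-1376 was under the floor of 3 reads in KK and WA. Of 21 epithelial junction genes 3 were higher and 1 lower in all 3 lines, with OVOL1, a repressor of mesenchymal genes, at 1.17, 3.36 and 0.57, and GRHL2 at -0.25, -0.71 and -0.12. CDH1, encoding E-cadherin, measured 93.41 and 96.76 CPM in KK and WA of RT-112, 146.33 and 87.17 CPM in HT-1376, and 831.05 and 707.71 CPM in CAL-29, differences that do not share a sign. Of 13 mesenchymal genes 1 was higher in all 3 lines, namely ACTA2 with a mean log2FC of 1.29. VIM was at 0 reads in both variants of RT-112 and HT-1376 and went from 19.73 to 0.11 CPM in CAL-29, and COL5A1 had log2FC of -0.80, 4.87 and 0.62.

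Known AP-2 targets and partners of WWOX are set beside the 13.0% of all genes higher and 9.93% lower in all 3 lines. Without RT-112, 25.2% of all genes were higher and 22.5% lower in both other lines. The counts higher there were 4 of 12 AP-2 targets, 3 of 7 cofactors and 4 of 12 WWOX partners. The counts lower there were 1, 3 and 2 in that order. Of 12 direct AP-2 target genes past the filter 2 were higher in all 3 lines and 0 lower, namely IGFBP5 and CRABP2, a retinoic acid carrier with a mean log2FC of 0.92 (SE 0.30), and the median was 0.08, 1.10 and 0.37. ERBB2, the receptor that AP-2 factors activate in breast carcinoma, had log2FC of 0.11, -0.99 and 0.57, and CDKN1A, the p21 inhibitor, of 0.96, 0.71 and -0.09. Among 7 AP-2 cofactors 3 were lower in all 3 lines, and CITED2, a coactivator of AP-2, had the largest change with 15.57, 127.99 and 37.56 CPM in KK of RT-112, HT-1376 and CAL-29 and 11.74, 40.13 and 26.07 CPM in WA. EP300, an acetyltransferase, had a mean log2FC of -0.23, while that of CITED4 was 0.16. Of 12 WWOX partners 3 were higher in all 3 lines, with JUN at a mean of 0.93, RUNX2 at 0.25 and GSK3B at 0.02, a value within its error (SE 0.21) that was -0.00259 after quantile normalization.

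Lists of matrix, signalling and sterol genes are to be read against the 13.0% of all genes that were higher and the 9.93% that were lower in all 3 lines, and their medians of the mean log2FC were 0.42 for collagens, laminins and integrins, 0.30 for TGF-β and BMP genes, 0.17 for WNT genes and 0.27 for cholesterol synthesis genes. Without RT-112 the numbers higher in both other lines were 10 of 26, 12 of 24, 11 of 27 and 12 of 24 in that order (25.2% of all genes). Collagens, laminins and integrins had 8 of 26 members higher in all 3 lines and 0 lower, with COL7A1, the anchoring fibril collagen, at log2FC of 1.72, 3.23 and 0.27 and ITGB1 at 0.54, 0.59 and 0.48. TGF-β and BMP genes had 8 of 24 higher and 0 lower, and TGFB1 measured 103.27, 6.51 and 47.93 CPM in KK of RT-112, HT-1376 and CAL-29 and 131.58, 22.24 and 108.6 CPM in WA. The BMP targets ID1 and ID3 had mean log2FC of 0.92 and 0.79. WNT genes had 8 of 27 higher and 0 lower, with DVL1, a transducer of the signal, at 0.70, 0.59 and 0.65, LRP6, a co-receptor, at 0.60, 0.62 and 0.58, and WNT4 at 0.20, 3.07 and 1.62. Cholesterol synthesis genes had 11 of 24 higher in all 3 lines and 0 lower, and among them STARD4, a cholesterol carrier, and HMGCS1, an early enzyme of the pathway, had mean log2FC of 0.80 and 0.70.

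The other lists are set beside the same 13.0% higher and 9.93% lower of all genes, and several were at or below these shares. Interferon response genes had 5 of 21 higher in all 3 lines, with IRF9 at log2FC of 0.76, 0.64 and 0.96 and BST2 at 0.37, 1.14 and 0.37. MHC class I genes had 3 of 15 higher, p53 targets 4 of 21 (PLK3 and GADD45A with means of 0.73 and 0.65), and apoptosis regulators 6 of 24 higher and 1 lower (BIRC3 and BIK with 1.01 and 0.87). Matrix metalloproteinases and protease genes had 2 of 21 higher, ADAM8 and MMP15, and a median of 0.00, 1.31 and 0.37. The count was 3 of 20 for NRF2 and metallothionein genes, where MT1X had 0.84, 0.79 and 0.57, 4 of 25 for ATF4 targets, 2 of 10 for fatty acid synthesis, 3 of 20 for ER chaperones, 2 of 13 for heat shock genes and 3 of 28 for ribosomal protein genes, while 1 NRF2 and metallothionein gene and 1 ER chaperone gene were lower in all 3 lines. Without RT-112, 11 of 21 interferon response and 10 of 21 protease genes were higher in both other lines (25.2% of all genes). There 10 of 24 apoptosis regulators and 8 of 20 ER chaperones were higher too. The counts lower there were 1, 4, 2 and 3 in that order (22.5% of all genes). For MHC class I, p53, NRF2 and metallothionein, ATF4, fatty acid, heat shock and ribosomal protein genes, 4, 6, 5, 4, 2, 2 and 8 were higher there. The counts lower were 3, 2, 2, 5, 3, 3 and 2. In all 3 lines hypoxia and glycolysis genes had 2 higher and 2 lower of 28. Oxidative phosphorylation genes had 0 higher and 4 lower of 28, COX5A at -0.36, -0.33 and -0.31 among them. Without RT-112 hypoxia and glycolysis genes had 4 higher and 10 lower in both other lines, and oxidative phosphorylation genes 2 higher and 7 lower.

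**Figure D4:**
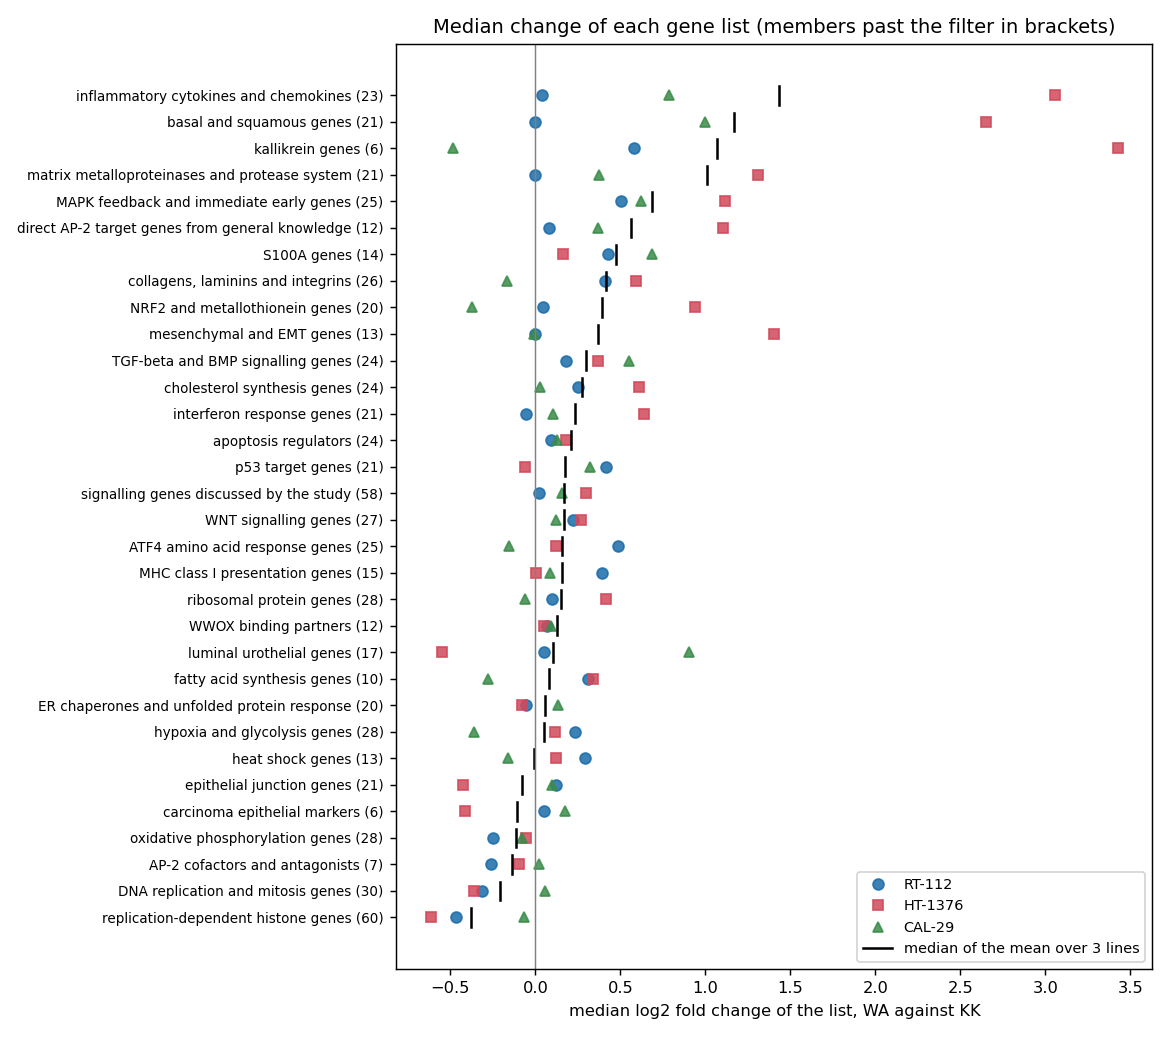
Median log2FC of each gene list in each line (symbols) and of the mean over lines (bar), with the number of members past the filter in brackets. The cytokine and the basal and squamous lists reach 3.06 and 2.65 in HT-1376 with values near 0 in RT-112, whereas the list of MAPK feedback and immediate early genes lies at 0.50 or above in each line.

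Signalling genes that the study discusses, which it chose on these same samples and which are therefore not independent evidence of a direction, gave 15 higher and 3 lower in all 3 lines among 58 past the filter (13.0% and 9.93% of all genes), and 0 passed the adjusted p. Without RT-112, 23 of the 58 were higher and 7 lower in both other lines (25.2% and 22.5% of all genes). HTR7, TGFB1, KIF7 and ITGB1 had the largest means among the 15, at 1.27, 1.07, 0.61 and 0.54. HTR7, a serotonin receptor, was low throughout, with 0.44, 0 and 1.23 CPM in KK of RT-112, HT-1376 and CAL-29 and 0.78, 0.89 and 5.95 CPM in WA. PEG10, an imprinted retrotransposon-derived gene, measured 6.09, 17.1 and 1.12 CPM in KK and 4.02, 28.37 and 0.05 CPM in WA and thus changed sign between lines.

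The extremes of each line were mostly particular values of that line. In RT-112 SUSD2 went from 0.06 to 29.46 CPM and CA9, a carbonic anhydrase of hypoxic cells, from 0.83 to 27.61 CPM, and both were below 1 CPM in KK and WA of the other lines. KA of RT-112 held SUSD2 at 26.36 CPM and WK at 0.54 CPM. On the lower side of RT-112 IFI27, C5orf63 and THEM4 had log2FC of -2.72, -2.69 and -2.35, and IFI27 was higher in WA of HT-1376 (3.49). In HT-1376 TNC, the matrix protein tenascin C, went from 0.26 to 156.44 CPM, S100A2 from 23.22 to 4598.9 CPM and CALML3, an epithelial calmodulin, from 0.33 to 124.17 CPM. Their levels in HT-1376 WK were 38.42, 4276 and 34.41 CPM, also far above KK. HSD17B1, an oestradiol-forming enzyme, went from 158.24 to 1.73 CPM there, and ATP6V1B1 and BCAM from 67.81 to 0.51 CPM and from 45.31 to 0.64 CPM, with 5.68, 0.46 and 0.4 CPM in WK. In CAL-29 the leading genes S100A7, SPRR1B and S100A8 are given above, and on the lower side stood VIM, RNA5-8SN3, a repeated ribosomal RNA gene whose reads are uncertain, and LY6E-DT with log2FC of -5.05, -4.37 and -3.56.

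Whether WA differed from a variant with 1 transgene was asked in a fit of KK, WK, KA and WA, 12 libraries with the cell line as a block. No gene of 12890 passed an adjusted p of 0.05 between WA and WK in limma (0%), where the smallest adjusted p was 0.900 and 465 genes (3.61%) had an unadjusted p under 0.05. Between WA and KA the count was also 0 (0%), with a smallest adjusted p of 0.997 and 387 genes (3.00%) at an unadjusted p under 0.05. The tool edgeR with the cell line called 0 in each, and DESeq2 called 1 in each, namely DUXAP8 above WK and PSG1 below KA. The departure of WA/KK from the sum of WK/KK and KA/KK, which asks whether the transgenes add up on the log2 scale, also gave 0 genes (0%), with a smallest adjusted p of 0.887 and 431 genes (3.34%) at an unadjusted p under 0.05, and 0 in DESeq2 and edgeR.

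For the 20 genes the medians of the mean log2FC for WK/KK, KA/KK and WA/KK were 1.46, 1.25 and 2.23, values that share the KK libraries and are set side by side only. In WK 12 of the 20 were higher than in KK in all 3 lines, and in KA 13 were. WA was the highest of the 4 variants in 15 of the 20 genes in RT-112, in 9 in HT-1376 and in 9 in CAL-29, and in all 3 lines for 3 genes. The set was picked for WA values high beside KK, and the same KK libraries enter the counts of WK and KA. No test therefore rests on these counts, and shares over all genes are not given for them. The count of 15 in RT-112 rests on the library labelled RT-112 WA. The departure, which also includes these KK libraries, was below 0 in 14 of the 20 and its median was -0.62. PI3, for instance, had mean log2FC of 3.96, 2.93 and 3.70 for these comparisons, and its departure of -3.20 (SE 1.69) had an unadjusted p of 0.0871 in limma. EGR1 had 0.89, 0.78 and 1.68, with a departure of 0.01 (SE 0.90). That mean covers unlike lines, as EGR1 in KA of HT-1376 (152.23 CPM) was above WA (74.58 CPM). In KA of CAL-29 (115.01 CPM) it was below KK (178.6 CPM). FOS had nearly the same means of 0.66, 0.77 and 1.44, although KA was below KK in CAL-29 (7.52 CPM) and far above it in HT-1376 (70.87 CPM). For CLU the means were -1.82, -0.05 and -2.28, and WA was below KA with a log2 difference of -2.24 (SE 0.74, limma adjusted p = 0.997).

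**Figure D5:**
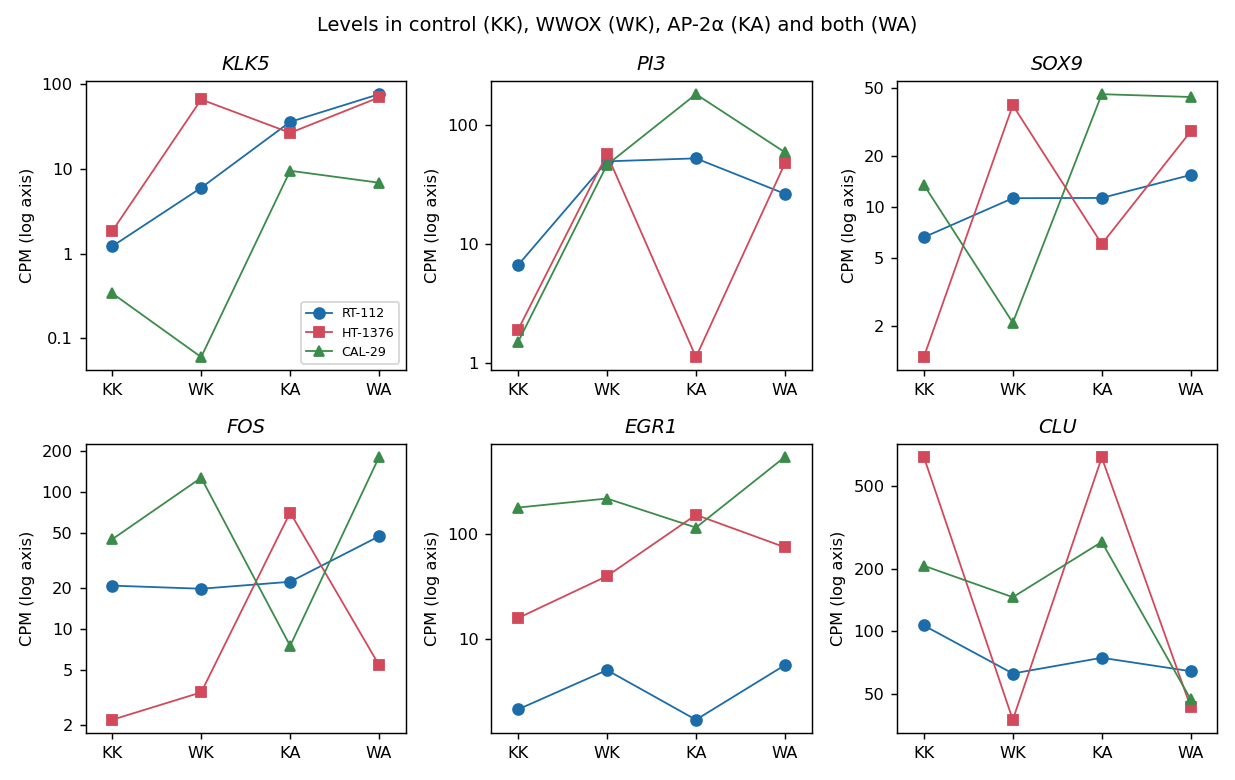
Levels of 6 genes in CPM (log axis) in KK, WK, KA and WA, with 1 point per library and 1 line per cell line. KLK5, PI3 and SOX9 in WA lie above KK in every line but not above both WK and KA in each, and CLU in WA lies between 43.01 and 64.17 CPM in all 3 lines.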

How the data were processed

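CAGE-seq libraries were sequenced in single-end reads, and the authors mapped them to hg38 with the Burrows-Wheeler aligner and then HISAT2 2.0.5, clustered the tags with Paraclu of the RECLU pipeline, kept clusters with a low irreproducible discovery rate, and deposited 1 CPM value per gene and library with 2 decimals. The total behind the CPM and the assignment of clusters to genes are not given in the sources used here. Per library 99.97% to 99.99% of the deposited CPM values were whole multiples of 1 read within 0.0051 CPM, so reads on genes were recovered, with 14287464 to 17292683 in the 6 libraries. Groups and cell lines came from the labels.

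Changes of log2(CPM + 0.5) were fitted in limma 3.58.1 (R 4.3.3, trended empirical Bayes, Benjamini-Hochberg adjustment) with the cell line as a block. The cell line pairs the libraries by design, and the deviations of KK and WA from their variant means correlated at 0.878, 0.775 and 0.883. The study used voom without a block, which was run as an alternative on all 18 libraries, beside pseudocounts of 0.05 and 2 CPM, no filter, 5 CPM in at least 3 libraries, TMM, quantile normalization, edgeR 4.0.16 and DESeq2 1.42.0 on the recovered reads, and each line left out. Fits were tested on simulated data. Symbols and positions are those of GENCODE 44 on GRCh38.

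Named genes were WWOX and AP-2 genes, the 12 highest and 12 lowest by the smallest shared change, up to 4 of each list by mean change among those of 1 sign in all lines (or the 2 largest where fewer than 2 shared a sign), the 3 extremes of each line each way and PEG10. The rest of the 20 genes, single list members named for contrast, and genes called in an alternative were added after their values were seen. The members and lists were chosen with earlier results of these data known. TFAP2E was under the filter. Results for some genes are not reported here.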

Additional observations from a re-analysis of the deposited data

Results flagged for a closer look

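By the labels, S100A7 is the named gene for which the WWOX variant was higher without AP-2α and lower with it in every line. WK exceeded KK by 1.63, 2.44 and 4.42 on the log2 scale in RT-112, HT-1376 and CAL-29, whereas WA was below KA, with log2 differences of -2.11, -0.43 and -0.77. The mean of WA/KA minus that of WK/KK, both as log2FC, was -3.93 (SE 1.44) and did not pass the test across all genes (limma unadjusted p = 0.0206, adjusted p = 0.887). The RT-112 value rests on 2.74 CPM in the library labelled RT-112 WA, which stood apart at TFAP2C. WWOX itself measured less in WA than in KA in RT-112 (18.95 against 23.52 CPM) and HT-1376 (19.24 against 24.74 CPM). In CAL-29 it measured more (69.27 against 51.31 CPM).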

How the results depend on the processing

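The count of 0 genes past the adjusted p in WA/KK moved to 31 in DESeq2 with the replicate block, and to between 1 and 3 when 1 line was left out, with 2 genes (PI3 and SPRR1B) without RT-112, 3 (KLK5, NEURL3 and L1CAM) without HT-1376 and 1 (KLK5) without CAL-29. It stayed 0 under the other settings, the fit with no replicate block (0 genes) among them. The replicate block pairs the libraries of a cell line. DESeq2 also gave 1 gene between WA and WK and 1 between WA and KA. The 20 genes at least 2-fold higher in each line became 51 with a pseudocount of 0.05 CPM, 8 with 2 CPM, 9 with 5 CPM in at least 3 libraries, 12 after quantile normalization and 74 at a 1.5-fold threshold, and between 45 and 133 without 1 line (80 without CAL-29). The 0 genes lower became 3 with a pseudocount of 0.05 CPM, 2 after quantile normalization, 18 at 1.5-fold and between 3 and 33 without 1 line.

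Of 151 named genes 138 kept their direction under every alternative. Without RT-112 the log2FC of TFAP2C became -0.41 and of C5orf63 0.053. Without HT-1376 it became -0.087 for COL5A1, -1.31 for IFI27, 0.00499 for HSD17B1, 1.32 for ATP6V1B1, 0.84 for BCAM, -0.25 for CALML3 and -0.22 for S100A2. Without CAL-29 it became 0.80 for LY6E-DT and 0.085 for PEG10. Quantile normalization gave -0.00259 for GSK3B and -0.039 for RRM2B, DESeq2 gave 0.088 for ATP6V1B1 and 0.20 for LY6E-DT, and a pseudocount of 0.05 CPM gave 0.086 for LY6E-DT. The counts of one direction in HT-1376 and CAL-29 alone were added after the data were seen. Depth limits genes near 3 reads, and 3 pairs limit every test.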

Other observations

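Replication-dependent histone genes, a family grouped after its values were seen, lay lower in WA. Of 60 past the filter 30 were lower and 1 higher in all 3 lines (9.93% and 13.0% of all genes), 10 had an unadjusted p under 0.05, all lower (1.11% of all genes), and 0 passed the adjusted p in limma. Without RT-112, a setting added after the data were seen, 32 were lower and 4 higher in both other lines (22.5% and 25.2% of all genes). Their median log2FC was -0.47, -0.62 and -0.07 in the order RT-112, HT-1376, CAL-29. H2BC6, a core histone gene of the large cluster, measured 181.95, 55.18 and 51.8 CPM in KK of RT-112, HT-1376 and CAL-29, and 85.41, 14.57 and 51.22 CPM in WA. H3C3 measured 5378.3, 42.29 and 469.31 CPM in KK and 4046.3, 5.37 and 360.15 CPM in WA, and H2BC1, a testis histone, was the exception with a mean log2FC of 0.81. Reads of near-identical histone copies could be split between genes.

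S100A genes and kallikreins were grouped in the same way. Of 14 S100A genes 7 were higher and 0 lower in all 3 lines (13.0% and 9.93% of all genes), and S100A14 measured 701.36, 303 and 11.32 CPM in KK of RT-112, HT-1376 and CAL-29 and 1500, 444.53 and 87.87 CPM in WA. Of 6 kallikreins past the filter only KLK5 was higher in all 3 lines, and KLK8, which lies in the same cluster, had log2FC of 2.35, 3.93 and -0.10. The median of the kallikreins was 0.58, 3.43 and -0.49 in these lines. Without RT-112, 11 of 14 S100A genes were higher and 1 lower in both other lines (25.2% and 22.5% of all genes). Of the 6 kallikreins 1 was higher and 0 lower there.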
